A study of Mus musculus with 4 samples.

Results

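Plagl1, Impact and Sfmbt2 are mouse genes known, in some tissues at least, for expression from the paternal allele. Each stands at an imprinted locus with no large cluster around it. Phactr2 is a neighbour of Plagl1 on chromosome 10 and was placed among maternally expressed genes in the lists used here. Imprinting of Sfmbt2 or Phactr2 in adult cortex was not assumed. The 4 genes were taken by name from 46320 gene identifiers in the RNA-seq tables, and all 4 had enough reads to be tested. The regions of allelic DNA methylation difference lying in or within 20 kb of a gene were taken from the authors' list, which gave 3 regions of the 1600 that carry methylation levels. RNA-seq and MethylC-seq, a bisulfite sequencing assay of cytosine methylation, were each made as 2 libraries of prefrontal cortex from 14-week-old female F1 mice with the strain label C57BL6J/Spretus. All animals carried a mutation of the long noncoding RNA Xist on the maternal allele, and there was no other genotype or treatment. Tissue was pooled over 2 individuals from separate litters, per the labels' protocols, and the labels do not say whether libraries 1 and 2 hold different animals. P-values therefore describe the spread of these libraries alone, and that spread may be technical.

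Genomic imprinting marks a gene in the egg or the sperm, most often by DNA methylation at a control region, so that after fertilisation the gene is read mainly from the allele of the other parent. Plagl1 (also Zac1) encodes a zinc finger transcription factor that slows cell growth and regulates other imprinted genes. Impact encodes a protein abundant in neurons that binds GCN1 and so restrains GCN2, the kinase that lowers translation when amino acids run short. Sfmbt2 encodes a Polycomb group protein known for its role in the placenta and carries a large microRNA cluster in an intron. Phactr2 encodes a regulator that binds actin and protein phosphatase 1. Spretus is treated as the father's strain because the label names it second. The cross was made in 1 direction, so parent of origin and strain cannot be told apart for any gene below.

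The RefSeq promoter window of Plagl1 lay wholly inside a region with a methylation level of 0.910 on the C57 allele and 0.120 on the Spretus allele. The gene start listed in the tables lies 29387 bp before that region. No listed region touched the windows of Phactr2 and Sfmbt2 shown here. RefSeq windows of 300 bases on GRCm38.p6, from 250 bases before to 50 after a gene start, are shown here so that the CpG sites, the main target of DNA methylation, can be compared. They are written along the gene's own strand, and capitals mark the CpG sites.
Plagl1, chr10:13090582-13090881, plus strand: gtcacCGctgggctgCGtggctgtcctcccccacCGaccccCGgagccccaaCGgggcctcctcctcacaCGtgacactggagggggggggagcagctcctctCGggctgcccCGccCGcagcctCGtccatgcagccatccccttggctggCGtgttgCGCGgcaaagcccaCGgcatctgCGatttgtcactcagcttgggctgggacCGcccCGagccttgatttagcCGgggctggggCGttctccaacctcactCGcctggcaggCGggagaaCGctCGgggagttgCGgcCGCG
Phactr2, chr10:13324240-13324539, minus strand: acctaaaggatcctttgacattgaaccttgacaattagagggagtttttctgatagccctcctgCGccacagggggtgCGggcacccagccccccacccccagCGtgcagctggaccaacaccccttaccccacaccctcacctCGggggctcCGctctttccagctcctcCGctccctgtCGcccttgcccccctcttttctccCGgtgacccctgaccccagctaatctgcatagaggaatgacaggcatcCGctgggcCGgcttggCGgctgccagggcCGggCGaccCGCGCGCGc
Sfmbt2, chr2:10372186-10372485, plus strand: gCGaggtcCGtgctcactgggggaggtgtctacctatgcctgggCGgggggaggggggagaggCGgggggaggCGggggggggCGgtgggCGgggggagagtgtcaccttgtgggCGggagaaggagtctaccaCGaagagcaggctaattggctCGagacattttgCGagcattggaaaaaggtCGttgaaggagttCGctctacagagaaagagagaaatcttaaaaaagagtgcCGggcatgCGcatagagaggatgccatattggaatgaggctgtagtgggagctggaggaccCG

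The Plagl1 window held 26 CpG sites with a G and C content of 70.7%, against a median of 7 CpG sites and 53.0% over 32619 windows. Fewer CpG sites than in the Plagl1 window were found in 83.0% of the windows. The Phactr2 window lies at the RefSeq start, 13324289, which is inside the longer gene of the tables, whose minus-strand start is at 13474396. It held 17 CpG sites and the Sfmbt2 window shown held 16, with fewer sites in 68.4% and 66.8% of the windows. Windows above the median CpG count thus stood among the members with and without a listed region. A second Sfmbt2 window, at chr2:10370201-10370500, lies just before the gene start listed in the tables. It held 9, with fewer in 53.9% of the windows. The letters TGCCGC, known as the core of the motif bound by ZFP57, which protects imprints after fertilisation, were searched on either strand. They occurred once in the Plagl1 window, on the minus strand at positions 13090742 to 13090747 of chromosome 10, and not in the other windows. The stretch around this match is shown with the motif in capitals, written along the plus strand.
ZFP57 motif letters in the Plagl1 window: ggcgtgttgcGCGGCAaagcccacgg
The same letters stood in 11.7% of all windows, so a match in a window of this length is not rare. The Sfmbt2 window shown held the letters GCCATNTTG, known from the factor YY1, at 10372445 to 10372453, and GCATGCGC, known from NRF1, at 10372426 to 10372433 on chromosome 2. These were found in 2.52% and 2.72% of all windows. The letters GGGGCCCC, a palindrome known from PLAGL1 itself, were in none of the members' windows and in 1.09% of all. No match overlapped another, and binding was not measured.

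Allelic methylation in or near these genes was found at Plagl1 and Impact, and it lay on the C57 allele in each of the 3 regions. The Plagl1 region ran from 13089891 to 13092325 on chromosome 10 (mm10), a length of 2434 bp. Its methylation level, as a fraction, was 0.910 on C57 and 0.120 on Spretus. The tables list Plagl1 (ENSMUSG00000019817.17) at 13060504 to 13131694, so the region began 29387 bp inside the listed gene. RefSeq starts Plagl1 at 13090832, which is 941 bp inside the region. The RefSeq promoter window began 691 bp after the start of the region and ended 1444 bp before its end. Among 1006 autosomal regions it was the 6th longest, against a median length of 76.5 bp.

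Impact (ENSMUSG00000024423.5) is listed at 12972252 to 12992948 on chromosome 18, and its main region ran from 12971901 to 12973720. This region of 1819 bp began 351 bp before the first listed base of the gene and ended 1468 bp after it. RefSeq starts Impact further upstream, at 12954690, which lies outside the region, so the placement at the gene start holds for the tables' annotation only. Its level was 0.870 on C57 and 0.0420 on Spretus. The other Impact region ran from 12974377 to 12974748, 657 bp further on, with levels of 0.874 and 0.0314. The Spretus level was thus lower at the Impact regions than at Plagl1, while the C57 levels lay close together. In rank by size of the allelic difference the 3 regions stood in the middle of the autosomal list, at 457 for Plagl1 and at 411 and 387 for Impact. Of all autosomal regions, 73.4% were higher on C57. Among the 229 of at least 200 bp with a difference of at least 0.5, as these 3 are, 130 were higher on C57. The levels come with no coverage, number of cytosines or per-library values, so their depth is unknown and they have no replicate check.

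**Figure D1:**
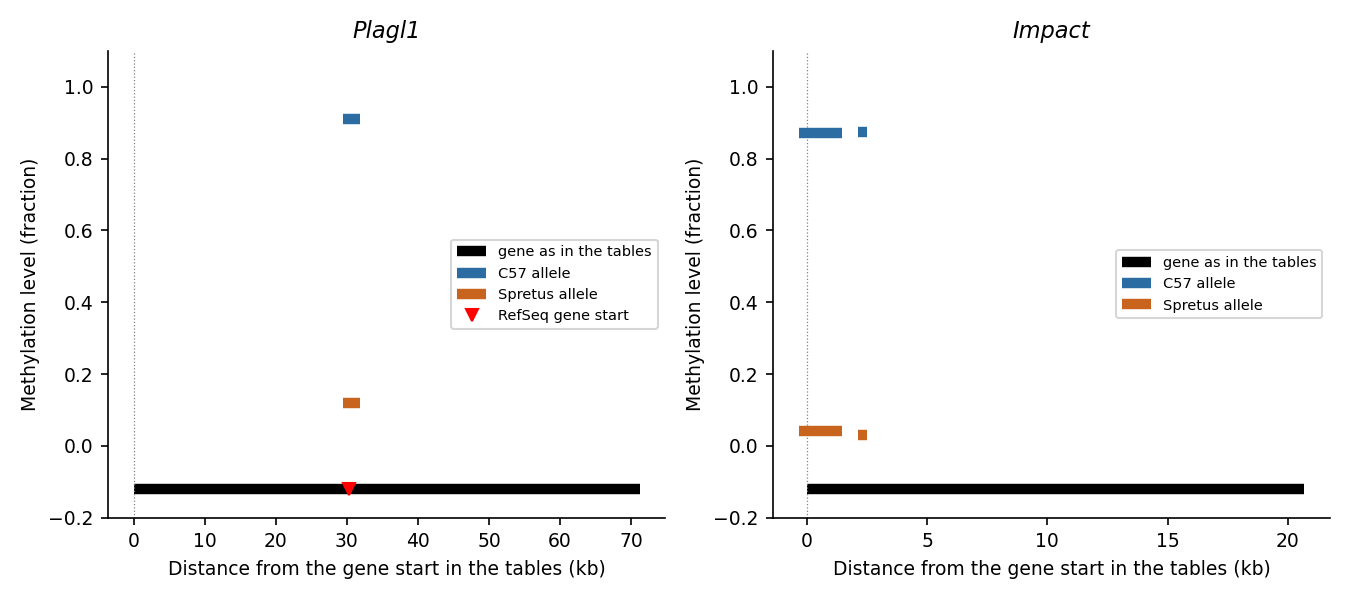
Methylation level (fraction, 0 to 1) of the C57 and Spretus alleles in the listed regions at Plagl1 (left) and Impact (right), against distance in kb from the first base of the gene as listed in the tables; black bars are the genes and the triangle marks the RefSeq start of Plagl1. The C57 allele stands at 0.910 at Plagl1 and at 0.870 and 0.874 at Impact, and the Spretus allele at 0.120, 0.0420 and 0.0314.

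No listed region lay in or within 100 kb of Phactr2 or Sfmbt2. The nearest region to Phactr2 was that of Plagl1, 115 kb away. The nearest to Sfmbt2 was an 8 bp region 2529 kb away. Levels outside the listed regions were not used here. Across 42106 autosomal genes, 3.58% had a listed region in or within 20 kb, and among the 10545 genes at least as long as Impact, the shortest of the 4, the share was 6.12%. Of autosomal genes, 1.23% overlapped a region, 11.3% had one within 100 kb, and 0.912% had one within 20 kb of at least 200 bp with a difference of at least 0.5. Of the 4 genes 2 had one, which describes genes picked as imprinted loci and is no test.

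A promoter inside a listed region was rare. Of 31396 autosomal RefSeq promoter windows, 41 overlapped a listed region, or 0.131%, and these belonged to 37 genes. Among them, 11 had enough allelic reads to be tested and a region higher on C57. Plagl1 was among 8 of these called toward Spretus, with Grb10, Kcnq1ot1, Mest, Peg3, Snrpn, Usp29 and Zrsr1. All 8 are known imprinted genes, and 2.39% of all tested autosomal genes were called toward Spretus. Peg3 and Usp29 carry the same listed difference, -0.865, as do Zrsr1 and Commd1, -0.921, so the 11 genes are not separate cases. Commd1, which hosts Zrsr1, was called toward C57, and Gnas and Mrpl20 were not called. In regions higher on Spretus, 2 genes were tested: Meg3 was called toward C57, and Ppp2r3c toward Spretus, the allele with the higher methylation. No Impact window was used here.

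Depth, as allele-assigned reads over all genes, was 4768237 in RNA library 1 and 1291903 in library 2. Total reads per gene differed between the libraries by more than counting noise, with a chi-square of 4.59 per degree of freedom, and the Spretus share did not, at 0.836. For Xist, the mutated gene, Spretus gave 2158 reads and C57 31 in library 1, and 795 against 9 in library 2. The marker lists of neurons, excitatory and inhibitory neurons, astrocytes, oligodendrocytes and their precursors, microglia and vessels had median FPKM of 5.71 to 455 in library 1 and 0.975 to 107 in library 2. Those of choroid plexus and ependyma and of cerebellum and olfactory bulb stood at 0.457 and 0.684 in library 1 and at 0.161 and 0.243 in library 2. The blood list stood at 87.1 and 5.23. Whether the makeup of the libraries bears on the shares below was not tested.

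Plagl1 and Impact were read mainly from the Spretus allele, Sfmbt2 leaned the same way without passing the test, and Phactr2 leaned toward C57. The mean Spretus share was 94.2% ± 5.10 (SD, n = 2) for Plagl1, 76.2% ± 2.50 for Impact, 60.9% ± 8.09 for Sfmbt2 and 39.6% ± 1.07 for Phactr2. The median of 11584 tested autosomal genes was 48.1%, with quartiles of 43.9% and 51.8%. Of these genes, 42 had a higher mean share than Plagl1, 107 a higher share than Impact and 550 a higher share than Sfmbt2, while 11.8% had a lower share than Phactr2. In edgeR's quasi-likelihood test 2.39% of autosomal genes were called toward Spretus and 3.04% toward C57, and of the 4 genes 2 were called toward Spretus and 0 toward C57. With the library total shared by the alleles the 277 and 352 calls behind these shares became 167 and 385. Phactr2 also passed at an unadjusted p under 0.05, toward C57, though the share of all genes that did so was not counted. DESeq2 called Plagl1 and Impact toward Spretus and 0 of the 4 toward C57, when it called 1.05% of autosomal genes toward Spretus, 1.15% toward C57 and 2.20% in all.

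**Figure D2:**
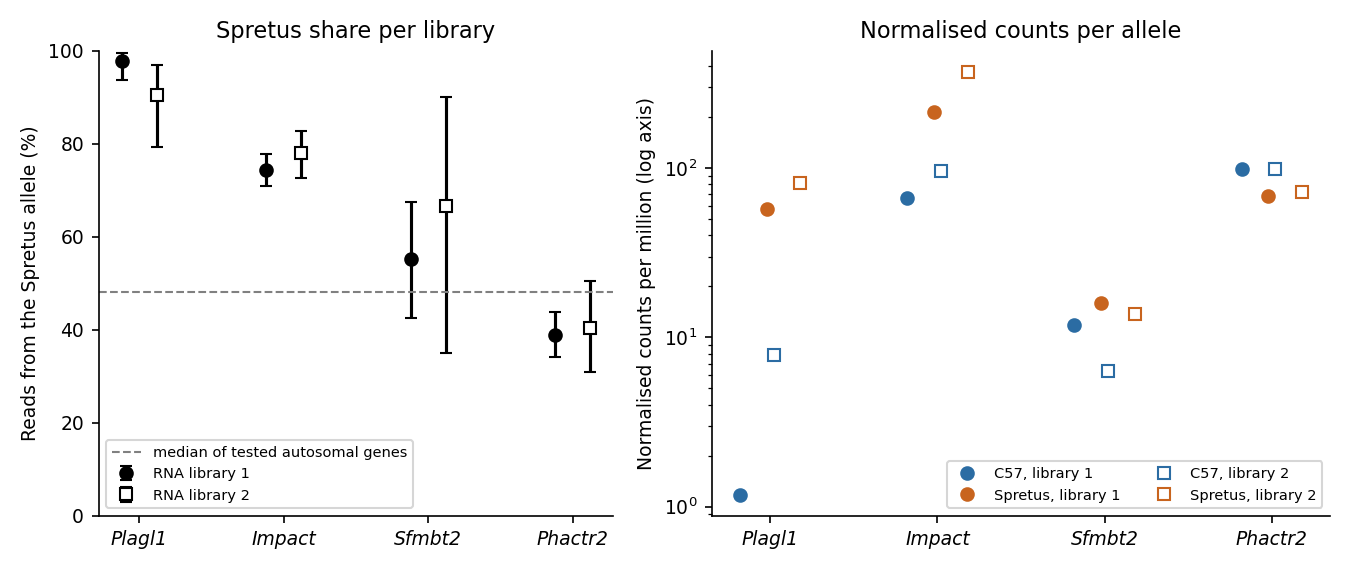
Left, share of allele-assigned reads from Spretus (%) for each gene in RNA library 1 (filled circles) and library 2 (open squares), with exact 95% intervals and the autosomal median of 48.1% as a dashed line; right, normalised CPM of each allele on a log axis. The Spretus share falls from Plagl1 (97.8% and 90.6%) over Impact and Sfmbt2 to Phactr2 (38.9% and 40.4%), and the Sfmbt2 intervals span the autosomal median.

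For Plagl1, 132 reads came from Spretus and 3 from C57 in library 1, and 48 and 5 did so in library 2. C57 reads were few in each library, and the alleles did not overlap. The Spretus share was 97.8% in library 1 (exact Clopper-Pearson 95% interval 93.6 to 99.5%) and 90.6% in library 2 (79.3 to 96.9%). Intervals here cover counting error only, since the reads carry no molecular identifiers. The C57 part was thus 2.22% of reads in library 1 and 9.43% in library 2. A comparison of the alleles between the libraries gave p = 0.0415 in Fisher's exact test, two-sided, and 0.166 after Benjamini-Hochberg adjustment over the 4 genes, and it compares these libraries only. By the quasi-likelihood test of edgeR, adjusted by Benjamini-Hochberg over all 11981 genes tested, the log2 ratio of Spretus over C57 was 4.62 (SE 0.50, adjusted p = 4.13e-05). From library 1 alone the log2 ratio was 5.52 and from library 2 alone 3.34, with no test.

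For Impact, 495 reads came from Spretus against 170 from C57 in library 1, and 216 against 61 in library 2. It had the most reads of the 4 genes, and the C57 allele gave a steady minority. The Spretus share was 74.4% (exact 95% interval 70.9 to 77.7%) in library 1 and 78.0% (72.6 to 82.7%) in library 2. The intervals of the libraries overlapped, and the share of library 2 lay just above that of library 1. The log2 ratio was 1.86 (SE 0.28, adjusted p = 6.45e-04 in edgeR). In library 1 the interval of Impact lay below that of Plagl1 with no overlap, and in library 2 the intervals met between 79.3% and 82.7%. Methylation is a different measure, and its C57 levels were 0.870 and 0.874 for Impact and 0.910 for Plagl1. Its allelic difference, Spretus minus C57, was -0.828 and -0.842 for Impact and -0.790 for Plagl1. Plagl1, with the higher Spretus share of RNA, thus had the smaller methylation difference. A relation between these measures was not tested.

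For Sfmbt2, Spretus gave 37 reads and C57 30 in library 1, and 8 against 4 in library 2. At this depth the Spretus share was 55.2% (exact 95% interval 42.6 to 67.4%) and 66.7% (34.9 to 90.1%), so each interval held equal shares of the alleles. Over the summed 79 reads 45 were from Spretus, with an interval of 45.3 to 68.1% that lies below the Impact and Plagl1 shares. The log2 ratio of 0.55 (SE 0.34) did not pass edgeR's quasi-likelihood test (adjusted p = 0.465). The tables list Sfmbt2 (ENSMUSG00000061186.14) at 10370510 to 10595253 on chromosome 2. Inside it stand 59 rows with microRNA symbols of the Mir297, Mir466, Mir467 and Mir669 families and 61 other rows. Over the microRNA rows Spretus gave 4 reads and C57 3 in library 1, and 2 against 1 in library 2, with at most 2 reads in a row. The other rows together held 12 reads. None of these rows had enough reads to be tested, and reads in near-identical copies inside a host gene cannot be assigned to each alone.

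For Phactr2, 159 reads were from Spretus and 250 from C57 in library 1, against 42 and 62 in library 2. C57 reads were the more numerous in each library. The Spretus share was 38.9% (exact 95% interval 34.1 to 43.8%) in library 1 and 40.4% (30.9 to 50.5%) in library 2. The log2 ratio was -0.49 (SE 0.17, adjusted p = 0.112), short of the threshold in edgeR's quasi-likelihood test. A fit with the library as a block uses the pairing of the 2 alleles. In it the log2 ratio was -0.50 (SE 0.11, adjusted p = 8.89e-04 in the same test), a call toward C57. The block called 11.3% of autosomal genes toward C57 and 11.1% toward Spretus, so a call under it is common. Phactr2 (ENSMUSG00000062866.14) is listed at 13207717 to 13474396 on chromosome 10.

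**Figure D3:**
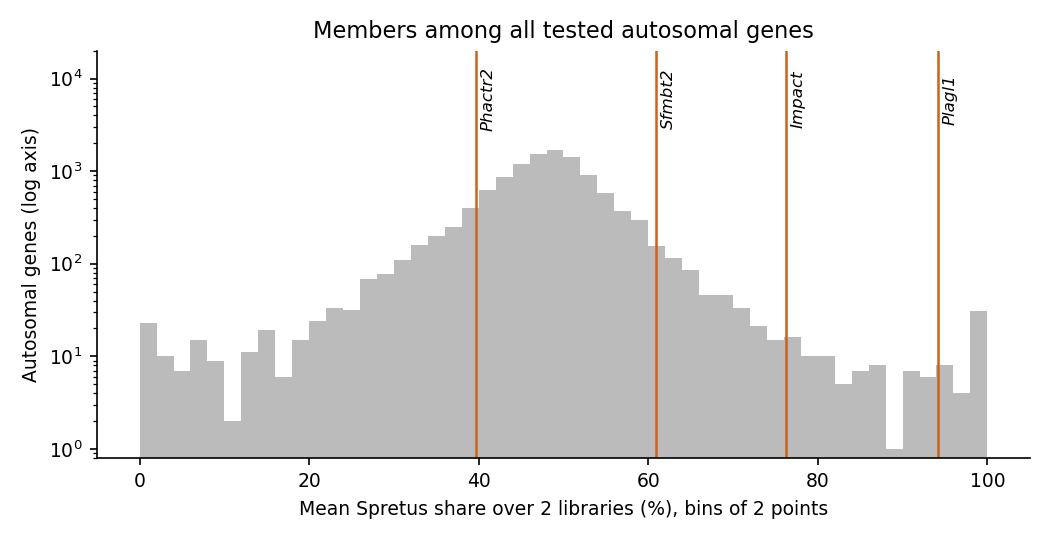
Number of tested autosomal genes (log axis) by mean Spretus share over 2 libraries (%), in bins of 2 points, with vertical lines at the 4 genes. Plagl1 (94.2%) and Impact (76.2%) stand in the right tail, Sfmbt2 (60.9%) on the right shoulder and Phactr2 (39.6%) inside the left flank of the distribution. The Sfmbt2 mean includes a library of 12 reads.

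The normalised counts, as CPM of each allele column, gave the same order of alleles. Plagl1 had 57.1 and 82.1 on Spretus against 1.18 and 7.91 on C57, and Impact 214 and 369 against 66.9 and 96.5. Sfmbt2 had 16.0 and 13.7 on Spretus against 11.8 and 6.33 on C57, and Phactr2 68.8 and 71.8 against 98.3 and 98.1. The alleles did not overlap for any of the 4, which was also so for 44.0% of autosomal genes, so a lack of overlap over 2 libraries says little by itself.

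The genes with the most similar pattern were sought among 6369 autosomal genes with at least 50 reads in each library, by the summed squared difference of the logit Spretus shares over the 2 libraries. For Plagl1 they were Zdbf2 (95.8% and 89.0%), Usp29 (96.9% and 94.8%) and Peg3 (94.5% and 92.8%), with distances of 0.331, 0.498 and 0.757. All are genes known for paternal expression. For Impact they were Zfp110 (73.8% and 78.6%), Eci2 (71.8% and 76.8%) and Eif4a1 (70.7% and 76.9%), none of them a gene of the imprinted lists used here. For Sfmbt2 they were Rgs20, Abhd6 and Wdr24, and for Phactr2 Rundc1, Bpnt1 and Lrrcc1, and none of these 6 passed the test. These likenesses are descriptions over 2 libraries that share their processing. Of the other tested genes of the paternal list, 15 of 18 were called toward Spretus and 1, Igf2 (25.2%), toward C57. Their median share was 96.9%. Plagl1 lay near that median and Impact below it. The 2 of the 18 not called were Gab1 (40.3%) and Zim1 (41.6%). Whether Zim1 belongs in a paternal list was not checked. Of the 16 other tested genes of the maternal list, in which Phactr2 was placed, 9 were called toward C57. Grb10 (86.0%) and Begain (59.7%) were the 2 called toward Spretus. The lists label genes without regard to tissue, so a call against a label is not read as an exception to imprinting in cortex. Over all tested autosomal genes, 2.39% were called toward Spretus and 3.04% toward C57. Both lists were drawn up with earlier results of these data known.

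The tested genes nearest to Plagl1 and Impact did not pass the allele test. Of 15 tested neighbours within 500 kb of the members, 1 was called in edgeR's quasi-likelihood test, against 5.43% of autosomal genes, and the other 14 had mean Spretus shares of 39.1 to 55.6%. Beside Plagl1, Sf3b5, a spliceosome gene 51.3 kb before it, stood at 39.1% ± 1.47 (SD, n = 2), and Ltv1, a ribosome assembly gene 46.9 kb after it, at 50.4% ± 2.32. Ltv1 is also the nearest tested gene on the lower side of Phactr2, and on its other side Fuca2, a fucosidase gene 25.1 kb away, stood at 43.8% ± 3.40. Osbpl1a, a lipid-binding protein gene 30.4 kb before Impact, stood at 46.5% ± 2.29 (SD, n = 2), with 691 Spretus and 745 C57 reads in library 1. No gene within 500 kb on the far side of Impact or Sfmbt2 had enough reads. Itih5, 114 kb before Sfmbt2, stood at 44.8% ± 0.169 (SD, n = 2).

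The called neighbour was Lama3, a laminin subunit gene listed at 12333819 to 12583013 on chromosome 18, 389 kb before Impact. For Lama3, Spretus gave 8 reads and C57 90 in library 1, and 0 against 14 in library 2. The 0 leaves room for a Spretus share as high as 21.4%. Its log2 ratio was -3.49 (SE 0.50, adjusted p = 4.43e-04 in edgeR's quasi-likelihood test), opposite in direction to Impact. Its reads fall short of a minimum of 50 per library, and under that minimum 0 neighbours were called. Ttc39c and Osbpl1a, which lie between Lama3 and Impact, were not called. Toward Spretus, 0 neighbours were called by edgeR or DESeq2, and 0 had an unadjusted p under 0.05, a threshold with no share over all genes counted. The library block called 1, Taf3, 322 kb before Sfmbt2 (log2 ratio 0.55, adjusted p = 0.0164 in edgeR).

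**Figure D4:**
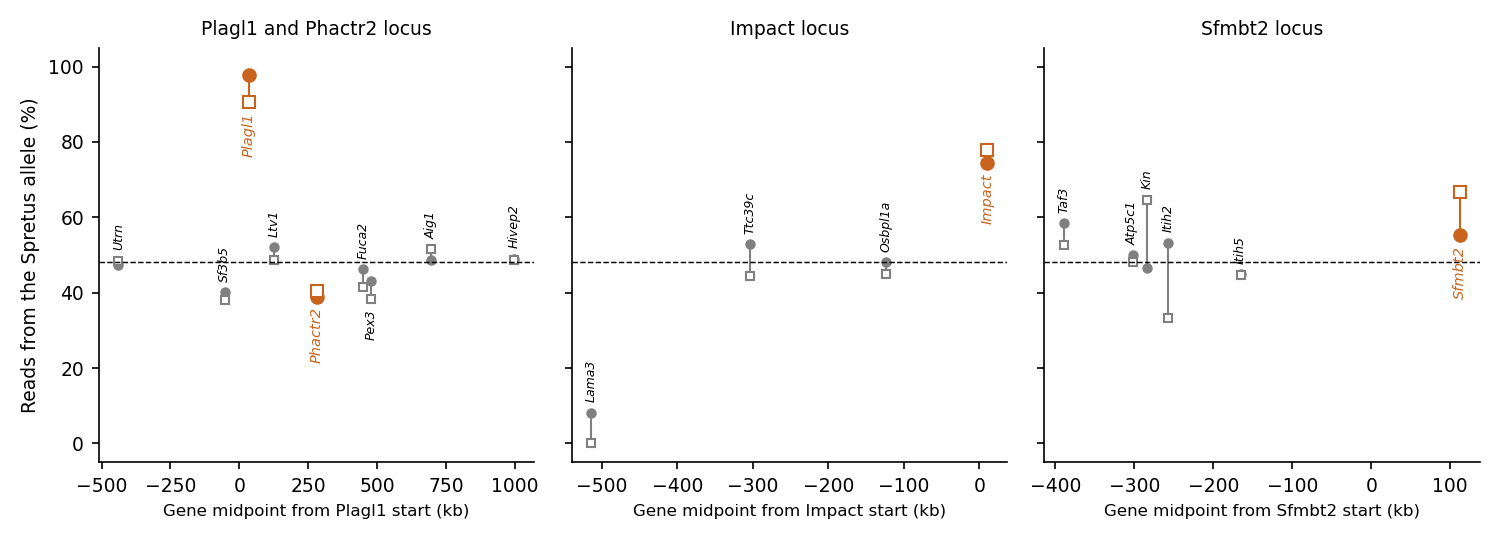
Spretus share (%) of the members (orange) and of tested genes within 500 kb (grey) in RNA library 1 (filled circles) and library 2 (open squares), by distance of the gene midpoint from the start of Plagl1, Impact or Sfmbt2 (kb); the dashed line is the autosomal median of 48.1%. Genes beside Plagl1 and Impact lie around the dashed line, and Lama3 near 0% is the called neighbour.

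In level, Impact stood apart from the others. Its FPKM, a value per transcript length, was 52.3 in library 1 and 11.0 in library 2, above 94.4% and 94.5% of the genes listed above 0. Plagl1 had 6.10 and 0.651, Phactr2 4.75 and 0.853, and Sfmbt2 0.921 and 0.122. Plagl1 and Phactr2 changed places between the libraries, so their order is not settled, while Impact was the highest and Sfmbt2 the lowest in each. Over the 21293 genes with an FPKM above 0 in both libraries the median ratio of FPKM, library 1 over library 2, was 5.68. Beyond this factor the Plagl1 FPKM of library 2 was 0.607 times that of library 1, whereas its CPM over the summed alleles was 1.45 times higher, at 41.0 against 28.3. Impact stood at 1.19 times by FPKM and 1.54 times by CPM. The measures thus disagreed in direction for Plagl1, and a difference in level between the libraries was not tested. In bulk tissue, fewer cells of a type and less RNA per cell cannot be told apart.

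Counts of calls in the pathways around Impact, Sfmbt2 and Phactr2 are read against the 5.43% of autosomal genes called by edgeR and the 2.20% called by DESeq2. A count of 0 or 1 in lists of this size is near those shares and is no result about a list. Of 25 tested genes of the GCN2 pathway, in which Impact acts, 1 was called toward Spretus and 0 toward C57, with a median log2 ratio of 0.09 against 0.02 over autosomal genes. At an unadjusted p under 0.05, 5 of them passed, and DESeq2 called 0. The share of all tested genes under that unadjusted threshold was not counted. Such counts, here and in the lists below, are therefore not read as an excess or a lack. The called gene was Eif2b1, a subunit of the exchange factor that recharges eIF2, at 62.0% ± 1.06 (SD, n = 2). Eif2ak4, which encodes GCN2 itself, stood at 54.3% ± 4.18 and Gcn1l1, which encodes GCN1, the partner that Impact binds, at 53.2% ± 2.01, and neither was called. The highest mean FPKM over the libraries, a mean that rests mostly on library 1, were those of Asns, an amino acid synthesis enzyme (FPKM 44.8 and 6.95), and the transcription factor gene Atf4 (FPKM 44.4 and 7.63), at Spretus shares of 47.4% ± 3.40 and 52.5% ± 4.63 (SD, n = 2). In library 2 Eif2b4 (FPKM 7.89) and Rwdd1 (FPKM 7.83) stood above both. With the library as a block 5 were called toward Spretus and 1 toward C57, Eif2ak4 and Gcn1l1 among the 5, when the block called 22.5% of autosomal genes.

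Of 24 tested Polycomb genes, the setting in which the Sfmbt2 protein works, edgeR called 0, with 1 at an unadjusted p under 0.05, and DESeq2 called 0. Their mean Spretus shares ran from 36.4% to 56.7%. Sfmbt1, the paralog of Sfmbt2, stood at 47.2% ± 2.41 (SD, n = 2), with an FPKM of 5.89 and 1.04, and so was above Sfmbt2 in level in each library. Yy1, whose factor recruits such complexes, stood at 48.3% ± 2.36. The highest mean FPKM were those of Cbx6 (87.6 and 18.8) and Hdac3 (31.4 and 4.90), though Scmh1 stood above Hdac3 in library 2, at 5.40.

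Of 12 tested genes around Phactr2 (its family, protein phosphatase 1 catalytic subunits, actins and the actin-sensing factors), edgeR called 0, with 2 at an unadjusted p under 0.05, and DESeq2 called 0. Its paralogs Phactr1 and Phactr3 stood at 44.6% ± 0.141 and 45.1% ± 0.269 (SD, n = 2), and Phactr4 at 59.4% ± 2.46. Phactr1, with an FPKM of 97.5 and 17.0, and Phactr3, with 38.6 and 7.55, were above Phactr2 in level in each library. The actin genes Actb (FPKM 2666 and 676) and Actg1 (235 and 36.7) were the most highly expressed. Actin pseudogenes are many, so reads of these 2 genes may be shared with near-identical copies. The library block called 2 genes of this list toward Spretus, Actg1 and Phactr4, and 1, Phactr1, toward C57, when it called 22.5% of autosomal genes.

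The other PLAG family genes, Plag1 and Plagl2, stood at 53.4% ± 7.93 and 46.0% ± 4.51 (SD, n = 2). Neither was called by edgeR or DESeq2 or had an unadjusted p under 0.05 in edgeR. Of 15 tested genes in a list of PLAGL1-regulated genes, 6 were called toward Spretus and 2 toward C57, and DESeq2 called 8. Those toward Spretus were Grb10, Mest, Ndn, Nnat, Peg3 and Rasgrf1, and those toward C57 were Igf2 and Meg3. All 8 are themselves imprinted, and the list was drawn up largely of imprinted genes, so its count says nothing of PLAGL1. The most highly expressed were Gnas (FPKM 567 and 107), at 49.9% ± 3.19, and Meg3 (FPKM 470 and 64.7), at 2.13% ± 0.144 (SD, n = 2). Not called were Gnas, Igf2r, Dcn, Rpl22l1, Adcyap1r1, which encodes the receptor of the neuropeptide PACAP, at 47.5% ± 3.31, Tcf4 at 46.4% ± 0.248 and the cyclin gene Ccnd1 at 27.4% ± 9.72. Ccnd1 had an adjusted p of 0.0933 in edgeR, and the library block called it toward C57 (adjusted p = 3.12e-05).

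Of 10 tested genes that maintain imprints, 0 were called by edgeR, 0 by DESeq2, 0 with the library block and 0 at an unadjusted p under 0.05. Over tested autosomal genes the called shares were 5.43% by edgeR, 2.20% by DESeq2 and 22.5% with the block. A count of 0 among 10 genes is thus no result about this list. Zfp57, whose factor binds the letters found in the Plagl1 promoter, had an FPKM of 4.20 and 0.660 and a Spretus share of 53.0% ± 4.18 (SD, n = 2). Zfp445, which encodes a further zinc finger protein of imprint protection, stood at 17.3 and 2.87. Trim28, their common cofactor, stood at an FPKM of 63.7 and 10.1, the de novo methyltransferase gene Dnmt3a at 19.7 and 5.05, and the maintenance methyltransferase gene Dnmt1 at 10.0 and 1.96. Other genes of this list had too few reads to be tested. Dppa3 had an FPKM of 0 in each library, Dnmt3l 0.0707 and 0, and Uhrf1 0.295 and 0.00873. Hells stood at 0.690 and 0.122, and Zfp202 at 1.08 and 0.169. Whether the level of any of these genes bears on the methylation at Plagl1 and Impact was not tested.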

How the data were processed

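Each RNA table holds, per the file headers, raw counts per gene for each allele and 1 FPKM per gene for the alleles together, as deposited. The deposited region list gives each allele's methylation as a fraction, and 13 regions without levels were left out. The submitters' processing notes name mm10, bedtools 2.2.4, HTSeq 0.6.0, TopHat2 2.0.9 and Cufflinks 2.1.1, without their roles. The region list's name points to methylpy. Allele assignment, annotation, strand setting, cytosine context and coverage: not given in the sources used.

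Counts were tested with edgeR 4.0.16 in R 4.3.3 (glmQLFit and glmQLFTest, TMM scaling, allele as the only term) on 11981 genes that had 10 or more allele-assigned reads in both libraries, with Benjamini-Hochberg adjustment over all of them and a threshold of 0.05. The SE is the log2 ratio over the root of the F statistic. The residual degrees of freedom were 2. The fit was tested on simulated data whose columns were drawn independently, so that test does not cover the pairing of alleles within a library. Both alleles of a library share its RNA, which pairs their columns. As a check of the pairing, deviations from the allele means correlated at 0.795 between alleles (1533 autosomal genes, 200 or more reads in both libraries). Alternatives were the library as a block, DESeq2 1.42.0, other scalings and read minimums, and each library alone. Gene starts count from 0 in the tables and are given counted from 1. Region positions are given as listed.

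Named beyond the 4 genes were called and nearest neighbours, the 3 most similar genes of each, and, in each pathway list, the called genes and the 2 with the highest mean FPKM. Other list genes, Taf3, Ttc39c and the genes with promoters in regions fall outside this rule and were chosen after their values were seen. Members and lists were chosen with earlier results of these data known. A sequence window for Impact is not shown.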

Additional observations from a re-analysis of the deposited data

How the results depend on the processing

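The log2 ratios of the 4 genes kept their direction under each alternative run, and Plagl1 and Impact stayed past the threshold in each fit that gave a test. The call of Phactr2 alone among the 4 changed: the replicate block gave -0.50 (adjusted p = 8.89e-04 in edgeR) against -0.49, and its adjusted p in the other alternatives ran from 0.0695 to 0.981. A single library gave values with no test, since no residual degrees of freedom remain. They ran from 3.34 to 5.52 for Plagl1, from 1.66 to 1.93 for Impact, from 0.42 to 1.09 for Sfmbt2 and from -0.53 to -0.45 for Phactr2. Sfmbt2 has too few reads for the minimum of 50 in each library. The numbers of autosomal genes called toward Spretus and C57, 277 and 352, became 1290 and 1313 with the replicate block, 122 and 133 with DESeq2, 600 and 690 with no filter on low counts, and 67 and 98 with a minimum of 50 reads. With the library total shared by the alleles they were 167 and 385. Calls in the GCN2 list, 1, became 6 with the block and 0 with DESeq2 or shared totals. Calls in the Phactr2 list, 0, became 3 with the block and 1 with no filter. The Polycomb list gave 1 with the block and 1 with no filter, and the imprint maintenance list 1 with no filter. Called neighbours, 1, became 2 with the block and 0 with a minimum of 50 reads or within 200 kb, since Lama3 then falls out. Genes with a listed region numbered 1509 within 20 kb, 516 by overlap alone and 4766 within 100 kb. The causes of these shifts were not tested beyond the change in genes, reads or distance that each setting makes.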
